A study of Mus musculus with 6 samples.

Results

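Iron storage and handling was followed through 9 genes, taken by their symbols out of the 32285 genes of the count matrices, each symbol naming a single gene. They encode the ferritin chains (*Fth1*, *Ftl1*), the exporter ferroportin (*Slc40a1*), the divalent metal transporters of phagosomes and endosomes (*Slc11a1*, *Slc11a2*), a pair of heme-breakdown enzymes (*Hmox1*, *Blvrb*), the transferrin receptor (*Tfrc*) and the ferritin cargo receptor (*Ncoa4*). The study profiled myeloid cells from the whole brain of 3 male C57BL/6J mice at day 89 by droplet single-cell RNA-seq, to compare the V3.0 and V3.1 versions of the 10X Genomics 3′ kit. Every brain was dissociated by cold Dounce homogenization and live CD45+/CD11b+ cells were sorted by FACS. Mouse 2 had the cocktail of transcriptional and translational inhibitors (actinomycin D, triptolide and anisomycin) during preparation (DNC-INHIB), whereas mice 1 and 3 had none (DNC-NONE). Cells of each mouse were captured with both kits, giving 6 libraries, so the mouse is the replicate, and the inhibitors and mouse 2 cannot be told apart.

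Cells keep iron safe by storing it inside ferritin, a hollow shell of heavy chains, which oxidize iron, and light chains, which help it to mineralize. Iron enters on transferrin through the transferrin receptor, or is recovered from heme by heme oxygenase. It leaves through ferroportin, the only known exporter of iron from mammalian cells. Macrophages recycle iron from engulfed cells, and neutrophils carry iron-binding proteins that withhold the metal from microbes.

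The libraries held 6275898 to 18872816 UMIs (unique molecular identifiers, each standing for 1 captured RNA molecule), and 19725 of 29412 barcodes passed the filter on genes, UMIs and mitochondrial UMIs. Cell types were gated on UMIs of marker genes that do not include the 9 iron genes, which gave 16596 microglia, 268 neutrophils and 26 border macrophages, the macrophages of the meninges, choroid plexus and perivascular spaces. Border macrophages were few, with 3 to 8 cells per library and 8, 12 and 6 cells in mice 1, 2 and 3, so a gate with looser limits (76 cells), chosen after seeing the data, was read beside the main one. The V3.0 library of mouse 3 stood apart, with 948 barcodes passing against 2808 to 4706 in the other libraries. Pairs of libraries shared 1 to 14 cell barcodes. Markers outside the gates followed the names: the summed microglial check markers had a median over the libraries of 10720.4 CPM (counts per 1000000 UMIs) in microglia, 2056 CPM in border macrophages and 62.4 CPM in neutrophils, and the border macrophage check markers 628, 41736 and 15.5 CPM in the same order. Neutrophil check markers were at 9370 CPM (median) in neutrophils, with *Ly6g* in 70.1% of cells thinned to 2000 UMIs, against 196 CPM in microglia and 72.3 CPM in border macrophages, and the 5 red blood cell genes ranged from 0 to 12.2 CPM in microglia, 0 to 6.18 CPM in neutrophils and were at 0 in border macrophages.

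Part of the control of these genes acts on their RNA after transcription, which UMI counts do not measure in full. Ferritin and transferrin receptor transcripts carry iron-responsive elements, hairpins bound by iron regulatory proteins when iron is scarce, which block translation of ferritin and protect the transferrin receptor transcript from decay. The sites of *Fth1*, *Ftl1* and *Tfrc*, the 3 genes printed here, are shown because they carry that control. Sites in the other members were not printed, whether or not they have any. The transcript strand of GENCODE M21 (mm10) was searched for the loop CAGTGN flanked on each side by 5 bases able to form Watson-Crick pairs, with a C before the paired bases. The *Fth1* site lies in the 5′ UTR at chr19:9982733-9982760 (plus strand) and the *Ftl1* site in the 5′ UTR at chr7:45459779-45459806 (minus strand). The 3 *Tfrc* sites that matched this pattern lie in its 3′ UTR on the plus strand, at chr16:32631220-32631247, chr16:32631664-32631691 and chr16:32631711-32631738. Capitals mark the loop and each window is 28 bases long.
Fth1: tcctgcttcaaCAGTGCttgaacggaac
Ftl1: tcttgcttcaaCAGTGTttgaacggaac
Tfrc site 1: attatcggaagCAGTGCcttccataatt
Tfrc site 2: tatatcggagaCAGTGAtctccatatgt
Tfrc site 3: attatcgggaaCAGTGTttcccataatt
A site was found in the 5′ UTR of 12 of 20597 genes (0.0583%) and in the 3′ UTR of 18 of 20995 genes (0.0857%). A match describes the letters and shows no binding.

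Levels below are CPM over library totals unless a scaling is named, and the order of neutrophils against the other types depended on that choice. *S100a8* and *S100a9*, the neutrophil alarmins, took 38.6% to 39.8% of all neutrophil UMIs. TMM scaling, which sets libraries to a common level of the bulk of genes and was used in the tests, had factors of 0.488 ± 0.0265 (SD, n = 3 mice) in neutrophils, 1.42 ± 0.00113 in microglia and 1.45 ± 0.215 in border macrophages, so it raises neutrophil values against both. TMM-scaled CPM are given where they turn an order.

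*Fth1* (ENSMUSG00000024661, mm10 chromosome 19, 9980598 to 9985098) and *Ftl1* (ENSMUSG00000050708, chromosome 7, 45457944 to 45459884) were detected in nearly every cell of each type, and over library totals both were highest in border macrophages. Microglia carried a median of 8 *Fth1* UMIs per cell, with the 5th and 95th percentiles at 2 and 20 and the highest cell at 195, and a median of 4 *Ftl1* UMIs. In UMIs summed per mouse over both kits, *Fth1* stood at 8655, 8842 and 6099 CPM in border macrophages of mice 1, 2 and 3. The same gene stood at 2369, 2712 and 2449 CPM in microglia and at 2276, 2890.0 and 2053 CPM in neutrophils. All 3 border macrophage sums were above all others, whereas the neutrophil and microglial ranges of *Fth1* overlapped. *Ftl1* stood at 5043, 5797 and 3524 CPM in border macrophages, at 2271, 2603 and 1977 CPM in neutrophils and at 1276, 1516 and 1234 CPM in microglia, with no overlap between any types. With TMM scaling neutrophils held more *Ftl1* than border macrophages in 3 of 3 mice, at 5030, 5250 and 3964 against 3569, 4814 and 2173 scaled CPM. TMM-scaled *Fth1* was at 5040, 5829 and 4117 in neutrophils, 6126, 7342 and 3761 in border macrophages and 1724, 1969 and 1781 in microglia, so that the ranges of neutrophils and border macrophages overlapped and both lay above microglia. Because the ferritin genes have many near-identical copies in the genome, a part of their UMIs may be assigned elsewhere. One such copy, *Ftl1-ps1*, held 1021 UMIs in microglia against 80983 for *Ftl1*, which also overlaps *Gm22133* on its own strand and *Gm10252* on the other.

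*Slc40a1* (ENSMUSG00000025993, chromosome 1, 45908068 to 45926523) differed from the ferritin genes, with ferroportin transcripts in microglia and neutrophils and hardly any in border macrophages. Microglia held 214, 204 and 208 CPM in mice 1, 2 and 3, and neutrophils 169, 119.6 and 102 CPM. Among the 26 border macrophages a single UMI was counted, in mouse 2 (19.4 CPM), and mice 1 and 3 had 0. Over library totals no neutrophil sum reached the lowest microglial one, whereas with TMM all 3 neutrophil values (373, 241 and 204 scaled CPM) were above all 3 microglial ones (156, 148 and 151).

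Of the metal transporters, *Slc11a1* (ENSMUSG00000026177, chromosome 1, 74375195 to 74386062), which encodes the phagosomal NRAMP1, was at 132, 139 and 157 CPM in microglia, 195, 116 and 90.4 CPM in border macrophages and 47.9, 33.1 and 32.4 CPM in neutrophils. The microglial and border macrophage ranges overlapped, and the neutrophil sums lay below both, whereas the TMM-scaled neutrophil values (65.1 to 106) overlapped those of microglia (96.1 to 114) and border macrophages (55.7 to 138). *Slc11a2* (ENSMUSG00000023030, chromosome 15, 100387898 to 100425072), which encodes the endosomal transporter DMT1 and overlaps *Gm5475* on the other strand, was at 20.9, 19.0 and 19.3 CPM in microglia and had 0 UMIs in the 268 neutrophils and in the 26 border macrophages. Counting 3 UMIs as the limit that a count of 0 allows, *Slc11a2* was at least 10.7-fold lower in neutrophils than in microglia over library totals and at least 3.71-fold lower with TMM. In border macrophages that limit lies above the microglial level, so a difference was not detectable at this depth. With the looser gate border macrophages held 1 *Slc11a2* UMI in each mouse (11.7, 4.92 and 15.6 CPM), against 19.2 to 20.1 CPM in microglia. *Tfrc* (ENSMUSG00000022797, chromosome 16, 32608920 to 32632794), the route for transferrin iron, was low everywhere, at 12.6, 8.67 and 10.6 CPM in microglia, with 2 UMIs in all neutrophils and 1 UMI in all border macrophages. Its pooled level was 8.49-fold lower in neutrophils than in microglia (exact 95% interval 2.34 to 70.2, counting error only) over library totals, but 2.96-fold lower with an interval from 0.815 to 24.5 with TMM, so the difference depended on the scaling. Its border macrophage level could not be placed against either.

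The heme enzymes were both highest in border macrophages, under both scalings by the mean. Their border macrophage values rest on few UMIs, 18 of *Hmox1* and 25 of *Blvrb*. *Hmox1* (ENSMUSG00000005413, chromosome 8, 75093621 to 75100589), which encodes the inducible heme oxygenase, was at 97.6, 213 and 181 CPM in border macrophages, 22.7, 40.9 and 28.0 CPM in microglia and 21.6, 40.5 and 32.4 CPM in neutrophils of mice 1, 2 and 3. Its border macrophage sums did not overlap the others, and those of microglia and neutrophils did overlap each other. With TMM the neutrophil values (47.9 to 81.6 scaled CPM) overlapped those of border macrophages (69.1 to 177) and lay above those of microglia (16.5 to 29.7). *Blvrb* (ENSMUSG00000040466, chromosome 7, 27447978 to 27466144), which encodes biliverdin reductase B, was at 195, 271 and 226 CPM in border macrophages, 64.3, 63.8 and 63.5 CPM in microglia and 9.28, 18.4 and 9.27 CPM in neutrophils, with no overlap between any types. *Ncoa4* (ENSMUSG00000056234, chromosome 14, 32159865 to 32179855), which encodes the receptor that delivers ferritin to lysosomes for iron release, was at 94.1, 103 and 91.2 CPM in microglia, 130.2, 116 and 136 CPM in border macrophages and 136, 138 and 162 CPM in neutrophils. These 3 ranges did not overlap, but the border macrophage values rest on 13 UMIs and reach 135.5 CPM, against 136.1 CPM as the lowest in neutrophils. Under the looser gate border macrophages were at 54.1 to 78.1 CPM, below microglia at 91.0 to 103 CPM, so their order turned. With TMM and the main gate the difference of neutrophils was wider, at 302 ± 23.5 scaled CPM (SD, n = 3 mice) against 69.9 ± 4.47 in microglia and 90.8 ± 6.62 in border macrophages.

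**Figure D1:**
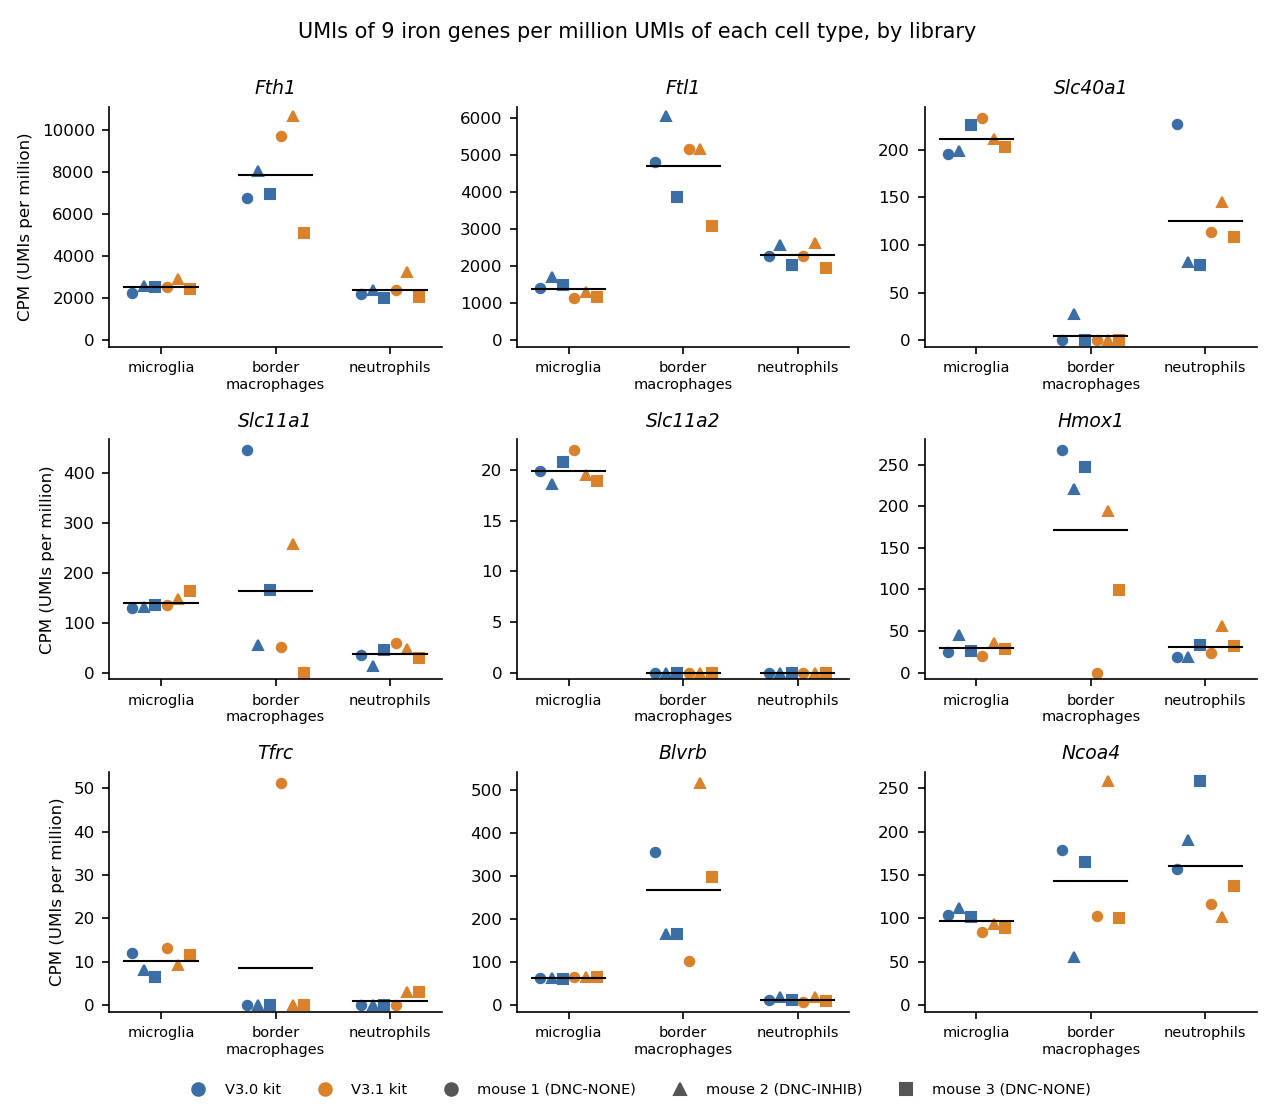
CPM (counts per 1000000 UMIs of the cell type) of the 9 iron genes in each of the 6 libraries, with the kit shown by colour, the mouse by symbol and the mean of the 6 libraries by a black line. Over these library totals both ferritin genes, Hmox1 and Blvrb are highest in border macrophages (with TMM scaling Ftl1 is highest in neutrophils, at a mean of 4748 against 3519 scaled CPM), Slc40a1 is at 0 to 27.7 CPM there and Slc11a2 is at 0 outside microglia. In border macrophages a difference in Slc11a2 was not detectable at this depth, and the looser gate held 3 UMIs of it.

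Border macrophages were compared with microglia within mice, on UMIs summed per mouse and cell type, to ask which cells of the sort carry which iron transcripts. By edgeR's quasi-likelihood test with the mouse as a block and Benjamini-Hochberg adjustment over 7519 genes, 4 of the 8 genes that passed the filter on low counts, all but *Tfrc*, were called higher in border macrophages and 1 lower, the call needing an adjusted p under 0.05 with a fold beyond 0.58 (log2) either way. Of all genes tested, 4.79% were called higher and 5.55% lower, and the median log2 fold change was 1.00 over the 8 iron genes (1.09 with *Slc11a2*, at 0 in border macrophages and past the filter only through microglia, set at its bound) and −0.47 over all genes. *Fth1* rose by 1.62 (log2, with SE the standard error, SE 0.19, adjusted p = 6.92e-16) and *Ftl1* by 1.82 (SE 0.19, adjusted p = 2.75e-19). *Hmox1* rose by 2.44 (SE 0.51, adjusted p = 4.05e-05) and *Blvrb* by 1.91 (SE 0.41, adjusted p = 6.20e-05), so both ferritin genes and both these heme enzymes were higher, each in 3 of 3 mice. The heme enzymes had few border macrophage UMIs, 3, 11 and 4 of *Hmox1* and 6, 14 and 5 of *Blvrb* in mice 1, 2 and 3. The other heme breakdown genes measured, *Hmox2* (−0.94, adjusted p = 0.265) and *Blvra* (0.91, adjusted p = 0.463), were not called. The lower call was *Slc40a1*, which had a single border macrophage UMI and passed the filter only through the other types, so it is given by its level. Its pooled level was 21.8-fold lower (exact 95% interval 3.91 to 860, counting error only). *Slc11a1* had a log2 fold change of −0.05 (SE 0.43, adjusted p = 0.971) and *Ncoa4* of 0.39 (SE 0.47, adjusted p = 0.718). Neither difference was detectable at this depth.

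The 5 calls were also made with the looser gate and with library totals taken without a scaling factor, both chosen after seeing the data. Under the looser gate the difference in *Slc40a1* shrank to a log2 fold change of −1.22, with 0, 128 and 15.6 CPM in border macrophages of mice 1, 2 and 3. Of its 27 UMIs 26 came from mouse 2, at a level below the 206 CPM of the microglia of that mouse. The call of *Hmox1* rested in part on mouse 2: without it *Hmox1* (adjusted p = 0.118) and *Blvrb* (adjusted p = 0.165) were not called. With the V3.1 libraries alone *Hmox1* was not called (1.30, adjusted p = 0.426). There its border macrophage UMIs were 0, 3 and 1 in mice 1, 2 and 3. Microglial check markers summed to 1297 to 3301 CPM in the border macrophages of the 6 libraries, a level whose part in these values was not tested.

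Neutrophils were compared with microglia in the same fit, and here the direction of several genes depended on the scaling. The median log2 fold change over all 7519 genes was −0.27 with TMM and −1.82 with library totals, for which 12% of genes were called higher and 74.7% lower. With TMM, 29.9% of all genes were called higher in neutrophils and 36.6% lower, and of the 8 iron genes tested 5 were called higher and 2 lower, with a median of 1.14, also with *Slc11a2* at its bound. One of the 2 lower calls was *Slc11a2*, which had 0 neutrophil UMIs and passed the filter only through microglia, so that its call was set by the filter and its bound is given above instead.

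*Ftl1* rose in neutrophils under both scalings, by 2.27 on the log2 scale with TMM (SE 0.18, adjusted p = 1.25e-35) and by 0.73 with library totals (adjusted p = 3.44e-06). *Blvrb* was called lower under both, at −0.86 (SE 0.35, adjusted p = 0.0241) and −2.41 (adjusted p = 1.67e-14), although with TMM the call was lost on leaving out mouse 1 (adjusted p = 0.170) or mouse 3 (adjusted p = 0.122). *Fth1* was called higher with TMM (1.43, SE 0.18, adjusted p = 5.33e-15) and had a log2 fold change of −0.11 with library totals (adjusted p = 0.505). *Slc40a1* was called higher with TMM (0.85, SE 0.16, adjusted p = 5.21e-07) and lower with library totals (−0.70, adjusted p = 1.80e-06), so whether ferroportin was higher or lower in neutrophils than in microglia depended on the scaling, and with TMM it was under the fold threshold without mouse 1 (0.57, adjusted p = 0.00786). *Ncoa4* was called with TMM (2.10, SE 0.17, adjusted p = 4.39e-35) and stayed under the fold threshold with library totals (0.55, adjusted p = 0.000340), higher under both. *Hmox1* was called higher with TMM (1.54, SE 0.31, adjusted p = 1.80e-06) and was not called with library totals (0.00098, adjusted p = 0.997) or with the V3.0 libraries alone (0.80, adjusted p = 0.175). *Slc11a1* was not called with TMM (−0.35, SE 0.23, adjusted p = 0.157) and was called lower with library totals (−1.90, adjusted p = 8.32e-21) and, with TMM, without mouse 1 (−0.70, adjusted p = 0.0389).

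**Figure D2:**
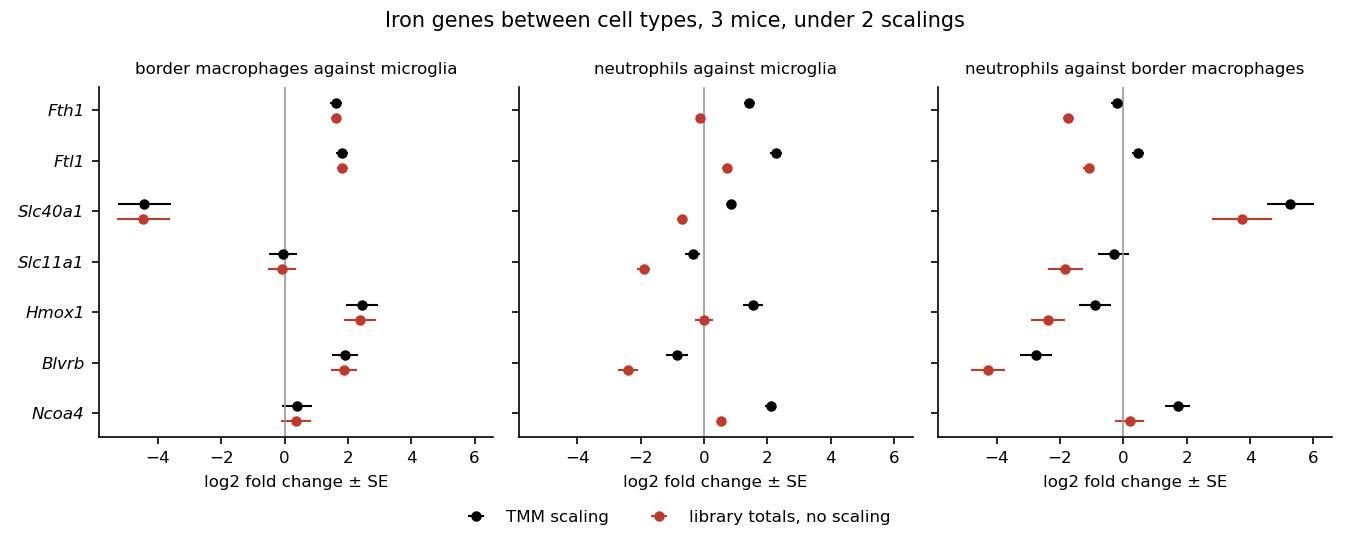
Log2 fold changes with SEs of 7 iron genes between pairs of cell types in 3 mice, with TMM scaling (black) and with library totals (red). The 2 scalings nearly coincide for border macrophages against microglia, while library totals move every gene to lower values in neutrophils, taking Fth1 from 1.43 to −0.11 and Slc40a1 from 0.85 to −0.70 against microglia.

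Against border macrophages, neutrophils had 2 of 8 iron genes called higher and 1 lower with TMM, where 22.2% of all genes were called higher and 13.3% lower, and the median over the 7 genes with UMIs was −0.19. *Slc40a1*, called higher under both scalings, rested on the single border macrophage UMI and passed the filter only through the other types, so it is given by its level. Its pooled level in neutrophils was 14.0-fold higher over library totals (exact 95% interval 2.49 to 557, counting error only) and 39.7-fold with TMM (7.05 to 1575). *Blvrb* was called lower under both, at −2.76 (SE 0.51, adjusted p = 6.50e-07) and −4.28 (adjusted p = 4.72e-14). *Ncoa4* was called higher only with TMM (1.72, adjusted p = 0.000101, against 0.20 and adjusted p = 0.763 with library totals). *Ftl1* had a log2 fold change of 0.45 with TMM (adjusted p = 0.0472, under the fold threshold), was called higher without mouse 2 (0.76, adjusted p = 0.0108), with barcodes from 500 genes (0.81, adjusted p = 0.00232) and with V3.1 libraries alone (0.81, adjusted p = 0.00499), and was called lower with library totals (−1.09, adjusted p = 3.84e-09). With library totals *Fth1* (−1.74), *Slc11a1* (−1.83) and *Hmox1* (−2.39) were also called lower, making 6 calls, of which 5 were lower, where 6.62% of all genes were called higher and 28.8% lower, with a median of −1.13. With the looser gate and TMM, *Fth1* (−0.64, adjusted p = 0.000404) and *Hmox1* (−1.25, adjusted p = 0.000738) were called lower too, as was *Slc11a2*, at 0 UMIs in neutrophils, and with V3.0 libraries alone *Hmox1* was called lower (−1.99, adjusted p = 0.0131).

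The ratio of *Fth1* to *Ftl1* UMIs within the same cells is free of any scaling, and it separated neutrophils from both macrophage types. Microglia had 1.86, 1.79 and 1.98 *Fth1* UMIs per *Ftl1* UMI in mice 1, 2 and 3, and border macrophages 1.72, 1.53 and 1.73. Neutrophils had 1.00, 1.11 and 1.04. As log2 values, the ratio was 0.91 ± 0.08 (SD, n = 3 mice) in microglia, 0.73 ± 0.10 in border macrophages and 0.07 ± 0.08 in neutrophils. Neutrophils were below microglia by a log2 difference of −0.84 and below border macrophages by −0.66, and border macrophages below microglia by −0.18, each in 3 of 3 mice. The two-sided exact permutation test treated the values of 2 cell types as independent, although they come from the same 3 mice. Its p was 0.1 for each of these 3 comparisons (adjusted p = 0.1), the smallest it can give. Because it ignores the pairing by mouse, it does not measure the differences within mice. The small difference between border macrophages and microglia turned to 0.01 with the looser gate (p = 0.8 by the same unpaired permutation test), whereas the neutrophil difference from microglia stayed at −0.83.

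**Figure D3:**
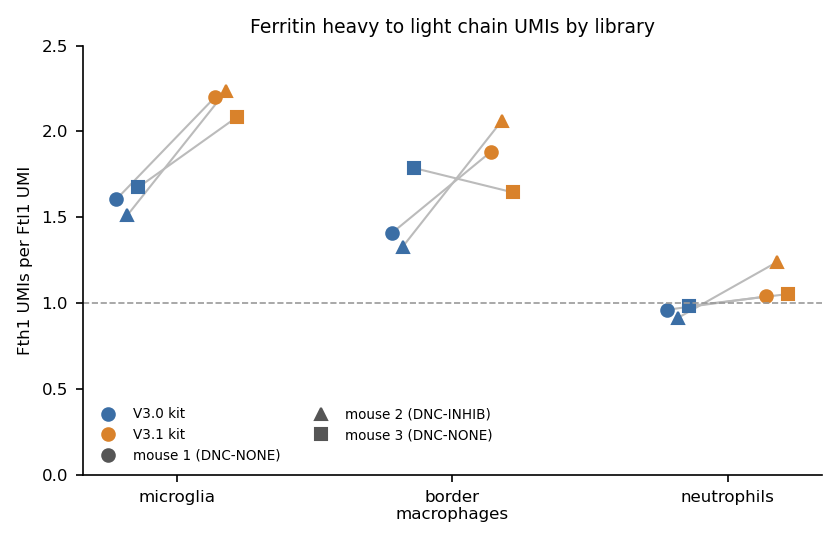
Fth1 UMIs per Ftl1 UMI in each library by cell type, with the 2 libraries of a mouse joined by a line and equality dashed. Neutrophil libraries sit between 0.915 and 1.24, and in microglia all 3 V3.1 libraries (2.09 to 2.24) lie above all 3 V3.0 libraries (1.51 to 1.67).

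Shares of cells with a UMI were compared after each cell was thinned to 2000 UMIs, which left out 707 shallower microglia and no cell of the other types. Median depths before thinning were 3473.5 UMIs in microglia, 3962.5 in border macrophages and 5675.5 in neutrophils. *Fth1* was found in 97.1% of microglia (exact 95% interval 96.8 to 97.3), 100% of border macrophages (86.8 to 100) and 92.5% of neutrophils (88.7 to 95.4). *Slc40a1* was found in 31.4% of microglia (30.7 to 32.2), 23.9% of neutrophils (18.9 to 29.4) and 0 of 26 border macrophages, which allows a share of up to 11.5% of cells with a UMI. Before thinning the *Slc40a1* shares were 47.5%, 47.0% and 3.85% in microglia, neutrophils and border macrophages. The thinned neutrophil share was below the microglial one, with intervals that did not overlap, and the 2 shares were alike before thinning, when neutrophils were deeper. Thinning matches total UMIs only, and with 38.6% to 39.8% of neutrophil UMIs taken by *S100a8* and *S100a9* it leaves neutrophils shallower for all other genes, so these shares follow library totals, the scaling under which *Slc40a1* was lower in neutrophils, and not TMM, under which it was higher.

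Free RNA in the droplets can add UMIs to cells that do not express a gene. The microglial gene *Cx3cr1* had a UMI in 4.10% of neutrophils at 0.0448 UMIs per thinned cell, against 8.41 in microglia. *Slc40a1* averaged 0.328 UMIs per thinned neutrophil against 0.406 per thinned microglia. The part of free RNA in the neutrophil level of *Slc40a1* was not tested. Intervals cover counting error only.

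*Slc11a1* had a UMI in 23.7% of thinned microglia (exact 95% interval 23.0 to 24.4), 19.2% of border macrophages (6.55 to 39.4) and 9.33% of neutrophils (6.13 to 13.5). *Hmox1* was found in 5.71% of microglia (5.35 to 6.08), 30.8% of border macrophages (14.3 to 51.8) and 7.09% of neutrophils (4.32 to 10.8), and *Blvrb* in 11.7% (11.2 to 12.2), 34.6% (17.2 to 55.7) and 2.24% (0.826 to 4.81). The heme enzymes thus had their highest shares in border macrophages, over pooled cells, with intervals that do not measure the spread between mice. *Ncoa4* was found in 17.7% of microglia (17.1 to 18.3), 26.9% of border macrophages (11.6 to 47.8) and 19.0% of neutrophils (14.5 to 24.2), with overlapping intervals. *Slc11a2* was found in 3.79% of microglia (3.50 to 4.10) and *Tfrc* in 1.98% (1.77 to 2.21), and both were at 0 of 268 thinned neutrophils, which allows up to 1.12%. Neither gene was found in the 26 thinned border macrophages.

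**Figure D4:**
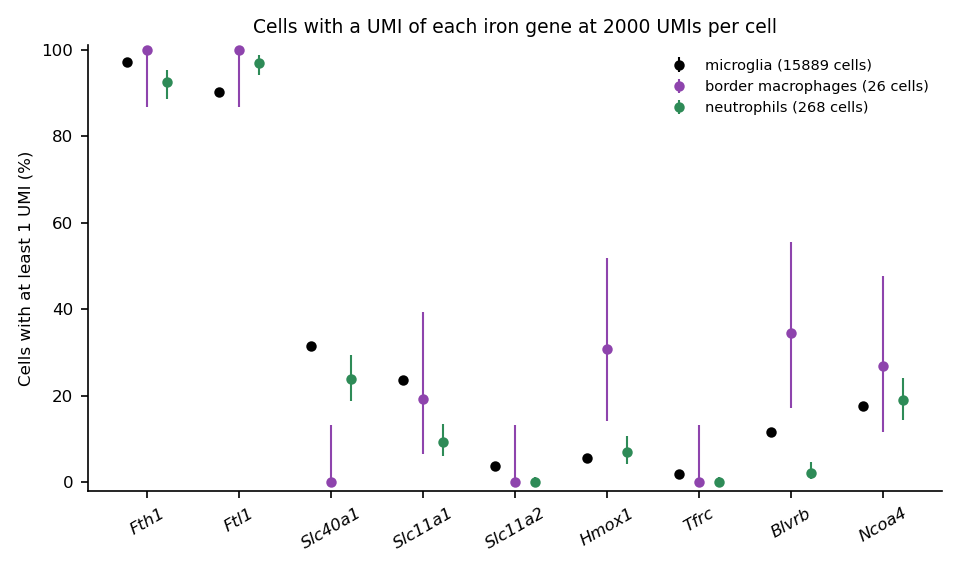
Percent of cells with at least 1 UMI of each iron gene after thinning to 2000 UMIs per cell, with exact 95% binomial intervals as bars. The intervals are over pooled cells and do not measure the spread between mice. Both ferritin genes are found in nearly all cells, Slc40a1 in 31.4% of microglia and 23.9% of neutrophils, and Hmox1 and Blvrb most often in border macrophages.

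The kits were compared within cell types, to ask whether the version of the chemistry changes these levels. In microglia, 0 of the 9 iron genes were called between the 3 V3.1 and the 3 V3.0 libraries by edgeR, against 2.97% of all 11877 genes, and DESeq2 also called 0. At an unadjusted p below 0.05 there were 3 of 9 iron genes by edgeR, beside 3409 of all 11877 genes, and 3 iron genes by DESeq2. An adjusted p below 0.05 at any fold was reached by 2 of 9 iron genes (*Ftl1* and *Ncoa4*) and by 12.7% of all genes. The CPM of the kits did not overlap for 4 of 9 iron genes and for 32.6% of all genes.

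*Ftl1* stood at 1395, 1690.5 and 1498 CPM in the V3.0 microglia of mice 1, 2 and 3, and at 1143, 1300.0 and 1167 CPM in the V3.1 microglia. It was lower with V3.1 in 3 of 3 mice, with a log2 fold change of −0.33 (SE 0.09, adjusted p = 0.0236 by edgeR), under the fold threshold. *Ncoa4* stood at 103, 112 and 102 CPM with V3.0 and at 83.9, 92.8 and 88.4 CPM with V3.1 (log2 difference −0.25, SE 0.07, adjusted p = 0.0461). Both *Ftl1* and *Ncoa4* were thus lower with V3.1 by a small amount. *Slc11a1* moved the other way in 3 of 3 mice, at 129, 131 and 135 CPM with V3.0 and 135, 148 and 163 CPM with V3.1, but its log2 fold change of 0.20 (SE 0.08) had an adjusted p of 0.113, or 0.0207 once mice were blocked. *Blvrb* was at 60.1 to 63.4 CPM with V3.0 and at 64.4 to 66.2 CPM with V3.1 (0.09, adjusted p = 0.431). The other 5 genes overlapped between kits, with log2 fold changes of 0.087 for *Slc40a1* (adjusted p = 0.505), 0.058 for *Slc11a2* (adjusted p = 0.757), −0.24 for *Hmox1* (adjusted p = 0.524) and 0.30 for *Tfrc* (adjusted p = 0.334). *Fth1*, at 2433 ± 171 CPM (SD, n = 3) with V3.0 and 2619 ± 254 with V3.1, differed by 0.12 on the log2 scale (adjusted p = 0.354), so the *Fth1* to *Ftl1* ratio of microglia was 1.60 ± 0.08 (SD, n = 3) with V3.0 and 2.17 ± 0.08 with V3.1.

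Blocking on the mouse gave an adjusted p of 6.23e-05 for *Ftl1* and 0.00266 for *Ncoa4*, both still under the fold threshold. The adjusted p of *Ftl1* was 0.0660 without the V3.0 library of mouse 3, a choice made after seeing the data, and 0.0424 to 0.101 with each mouse left out in turn. The median mitochondrial share of microglia also differed between kits, from 1.54% to 2.04% with V3.0 and from 0.773% to 1.07% with V3.1, and its part in these values was not tested.

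In neutrophils, 0 of the 6 iron genes tested were called between kits by edgeR and 0 by DESeq2, against 0.331% of all 2722 genes by edgeR. At an unadjusted p below 0.05 there were 209 of the 2722 genes by edgeR, and 1 iron gene by each tool. That gene, *Ncoa4*, stood at 157, 191 and 258 CPM with V3.0 and at 117, 102 and 137 CPM with V3.1 in mice 1, 2 and 3, and was lower with V3.1 in 3 of 3 mice without overlap (log2 fold change −0.70, SE 0.23, adjusted p = 0.345). No other of the 6 genes was separated between kits in neutrophils, where 13.4% of all genes did not overlap. *Ftl1*, at 2267, 2579.6 and 2041 CPM with V3.0 and 2275, 2619 and 1960.0 CPM with V3.1, differed by −0.05 on the log2 scale (SE 0.14, adjusted p = 0.932). The log2 fold changes were 0.18 for *Fth1* (adjusted p = 0.809), −0.29 for *Slc40a1* (adjusted p = 0.862), 0.59 for *Slc11a1* (adjusted p = 0.773) and 0.76 for *Hmox1* (adjusted p = 0.737), and *Slc11a2*, *Tfrc* and *Blvrb* did not pass the filter. Whether the kit difference itself differed between cell types was tested as an interaction. Of the 7 iron genes tested, 0 were called for neutrophils against microglia and 0 for border macrophages against microglia (edgeR, DESeq2 not run), against 0.0182% and 0.0182% of all genes. At an unadjusted p below 0.05 there were 0 iron genes in each, beside 215 and 274 of all 5480 genes. For *Ftl1* the kit difference in neutrophils minus that in microglia was 0.42 on the log2 scale (SE 0.33, adjusted p = 1.00). No kit test was made within border macrophages, where every library had fewer than 10 cells.

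**Figure D5:**
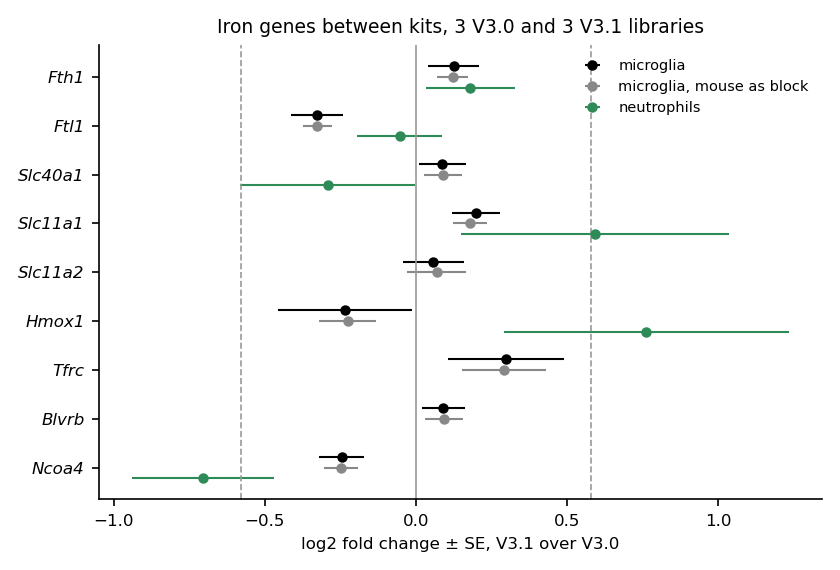
Log2 fold changes of V3.1 over V3.0 with SEs for the 9 iron genes in microglia (3 libraries per kit), in microglia with the mouse as a block, and for the 6 genes tested in neutrophils, with the fold threshold of 0.58 dashed. In microglia every gene lies within the threshold, Ftl1 lowest at −0.33.

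The inhibitor comparison sets mouse 2 against mice 1 and 3, with both kits summed, and the lone DNC-INHIB mouse was assumed to vary like the DNC-NONE mice. *Hmox1*, the stress-inducible heme oxygenase, was the single iron gene of 9 called in microglia, higher in DNC-INHIB, where 0.409% of all genes were called higher. It stood at 40.9 CPM in mouse 2 against 22.7 and 28.0 CPM in mice 1 and 3, a rise of 0.71 on the log2 scale (SE 0.11, adjusted p = 1.07e-06 by edgeR). Within kits, *Hmox1* was at 45.1 CPM against 25.3 and 25.7 CPM with V3.0 (0.85, adjusted p = 2.83e-07) and at 35.6 CPM against 19.8 and 28.6 CPM with V3.1 (0.55, adjusted p = 0.497). Mouse 2 was highest in both kits, but the call was lost with V3.1 alone and by DESeq2 (0.70, adjusted p = 0.450). The share of thinned microglia with an *Hmox1* UMI ranged from 3.75% to 7.90% over the libraries.

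The ferritin genes were also highest in microglia of mouse 2, without passing the test. *Fth1*, at 2712 CPM against 2369 and 2449 CPM, had a log2 fold change of 0.19 (SE 0.09, adjusted p = 0.607), and *Ftl1*, at 1516 CPM against 1276 and 1234 CPM, of 0.29 (SE 0.10, adjusted p = 0.141). *Tfrc* was lowest in mouse 2, at 8.67 CPM against 12.6 and 10.6 CPM (−0.41, SE 0.18, adjusted p = 0.441). The others had log2 fold changes of −0.030 (*Slc40a1*), −0.045 (*Slc11a1*), −0.068 (*Slc11a2*), 0.014 (*Blvrb*) and 0.17 (*Ncoa4*), with adjusted p from 0.715 to 0.994. In neutrophils *Fth1* was also highest in mouse 2, with a log2 fold change of 0.34 (SE 0.13) that did not pass the test. There *Ftl1* was at 0.22, *Slc40a1* at −0.29, *Slc11a1* at −0.39, *Blvrb* at 0.90 and *Ncoa4* at −0.17 (adjusted p from 0.825 to 0.935). In border macrophages only *Fth1* and *Ftl1* could be tested, and 0 of 2 were called by edgeR or by DESeq2, with 0 at an unadjusted p below 0.05 by either, against 0.189% of all 529 genes. With both kits summed *Hmox1* was also highest in mouse 2 in neutrophils (40.5 CPM against 21.6 and 32.4 CPM) and in border macrophages (213 CPM against 97.6 and 181 CPM), but was not called in neutrophils (0.56, SE 0.43) and not tested in border macrophages. The border macrophage values rest on 11 UMIs against 3 and 4. With V3.0 alone mouse 2 was lowest in neutrophils (18.2 CPM against 19.2 and 33.6 CPM) and in border macrophages (221 CPM against 268 and 248 CPM). With V3.1 it was highest in neutrophils (55.7 CPM against 23.9 and 32.1 CPM) and in border macrophages (194 CPM against 0 and 99.8 CPM).

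The other genes of iron metabolism were read from a list of 51 genes in 10 groups. Between border macrophages and microglia, 34 were tested, 3 were called higher and 2 lower, beside 4.79% and 5.55% of all genes, with a median log2 fold change of −0.44 beside −0.47 over all genes. Genes at a few UMIs in one type passed the filter only through the type where they are high, so *Cp*, *Cd163*, *Iscu* and *Abcg2* are given by their UMIs and levels. *Cp*, which encodes the ferroxidase ceruloplasmin that works beside ferroportin, had 17 UMIs in border macrophages (183 ± 117 CPM, SD, n = 3 mice) and 1.71 ± 0.264 CPM in microglia. *Cd163*, the hemoglobin scavenger receptor and one of the border macrophage check markers, had 31 UMIs in border macrophages and 9 in all microglia, and *Trf*, which encodes transferrin, rose by 0.60 (adjusted p = 0.0444). *Iscu*, the scaffold of iron-sulfur cluster assembly, was lower, at 39.0 ± 51.7 CPM from 4 UMIs against 207 ± 7.04 CPM, and *Abcg2*, a porphyrin exporter, had 0 UMIs against 58.1 ± 4.36 CPM.

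Between neutrophils and microglia 11 of 34 listed genes were called higher and 11 lower with TMM, beside 29.9% and 36.6% of all genes, with a median of −0.10. With library totals 7 were called higher and 22 lower, beside 12% and 74.7% of all genes, with a median of −1.65. The largest differences were in genes of the neutrophil granules, which passed the filter only through neutrophils. *Ltf*, lactoferrin, was at 6328 ± 1354 CPM (SD, n = 3 mice) in neutrophils and 6.08 ± 3.57 CPM in microglia, *Lcn2*, which binds bacterial siderophores, at 10600.0 ± 1039 and 16.4 ± 7.11 CPM, and *Hp*, haptoglobin, at 1516 ± 43.9 and 3.29 ± 0.892 CPM. *Slc7a11*, the cystine importer, was at 44.9 ± 21.6 against 1.65 ± 0.0672 CPM. Lower in neutrophils were *Slc39a8*, a zinc and iron importer, with 0 UMIs against 23.3 ± 1.35 CPM, and *Hfe*, a regulator of hepcidin, with 1 UMI in all against 117 ± 8.27 CPM. Against border macrophages 10 were called higher and 7 lower, beside 22.2% and 13.3% of all genes, and 5 and 9 with library totals, beside 6.62% and 28.8%. The largest of these were again genes near 0 in one type: *Ltf*, *Hp* and *Slc7a11* with 0 UMIs and *Lcn2* with 1 UMI in border macrophages, and *Cd163* and *Cp* with 0 UMIs in neutrophils. Between kits 0 of 40 listed genes were called in microglia and 0 of 15 in neutrophils by edgeR, beside 2.97% and 0.331% of all genes. *Lcn2* was lower in DNC-INHIB than in DNC-NONE microglia, at 10.5 CPM in mouse 2 against 14.3 and 24.3 CPM (−0.84, SE 0.16). In the neutrophils of these mice *Lcn2* was at 9865 to 11788 CPM.

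The genes with the most similar pattern were listed by Pearson's r of log2 CPM over the 18 sums of library and cell type, among 5480 genes, as a description in which sums of a library share its depth. *Fth1* ran closest to *Rpl41* (0.92), its partner *Ftl1* (0.92) and *Rpl37* (0.91). *Ftl1* ran closest to *Clec12a* (0.96), *Ifitm3* (0.96) and *Lyz2* (0.95), and *Slc40a1* to *Map4*, *Gtf2h5* and *Parvg* (0.99 each). With 1 UMI over all border macrophage sums, *Slc40a1* lies at the floor of log2 CPM in them, as does any gene at 0 there. The part of such zeros in its r values was not tested. *Blvrb* ran closest to *Dab2* (0.92), *Ifi207* (0.91) and *H2-Ab1* (0.90), *Hmox1* to *Galc* (0.93), *Slc11a1* to *Nbr1* (0.97) and *Ncoa4* to *Prr13* (0.94). Among the iron genes themselves *Fth1* and *Ftl1* were the most alike pair, and *Slc40a1* and *Blvrb* the most opposed (−0.80). The latter value includes sums near 0, with 1 *Slc40a1* UMI in all border macrophages and 20 *Blvrb* UMIs in all neutrophils. The 18 sums are 3 cell types in each of 6 libraries and are not independent.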

How the data were processed

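The authors deposited UMI counts per gene and barcode, made with Cell Ranger 5.0.0 and the mm10 reference per the study's methods, and these counts were used as deposited. The filter kept barcodes of 1000 to 4000 genes whose UMIs did not exceed 12000, with 15% as the upper limit of the mitochondrial share. Microglia needed at least 5 UMIs from at least 3 of 5 markers (*P2ry12*, *Tmem119*, *Gpr34*, *P2ry13*, *Siglech*), border macrophages 8 from 3 of 6 (*Mrc1*, *Pf4*, *Ms4a7*, *F13a1*, *Cbr2*, *Lyve1*) and neutrophils 20 from 3 of 6 (*S100a8*, *S100a9*, *Retnlg*, *Cxcr2*, *Mmp8*, *Stfa2l1*), with limits on the other gates' UMIs, and 2835 passing barcodes fell in no gate. These limits stand in for doublet removal, and no doublet caller was run. One microglial check marker of the design is not reported here and was left out of the sums.

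CPM, computed here, are counts per 1000000 UMIs of a sum. Counts were summed per library, or per mouse over both kits, and tested with edgeR 4.0.16 (quasi-likelihood, TMM, filterByExpr), with DESeq2 1.42.0 as an alternative. Kit fits had no block and cell type fits had the mouse as a block. The 2 libraries of a mouse come from the same animal, so mouse numbers pair them. Their deviations from the kit means correlated at 0.34, 0.52 and 0.18 over 500 genes, against −0.33 to −0.01 between different mice. All 9 genes were followed in every comparison and those that did not pass the filter on low counts were not tested. Of the 51 listed iron genes, up to 6 called genes with the largest fold changes that moved the same way in every mouse are named. The members and lists were chosen with earlier results of these data known. On simulated counts changed by a log2 fold of 1, edgeR recovered 86.2% of changed genes for the kit in microglia, 69.3% for neutrophils against microglia and 0.730% for border macrophages against microglia. Recovery was 48.9% for the kit in neutrophils. For the inhibitors it was 49% in microglia, 52.8% in border macrophages and 32% in neutrophils, so changes of that size could be missed there. Sequences are from GENCODE M21. The deposited libraries held 6275898 to 18872816 UMIs.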

Additional observations from a re-analysis of the deposited data

How the results depend on the processing

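Of the fold changes of the 9 genes, 549 kept their direction under an alternative and, where tested, whether they were called. A further 11 gained a call, 13 lost it and 24 changed sign, and 2 inhibitor folds of 1 mouse against 1, without a test, changed sign too. Library totals, chosen after seeing the data, turned the sign of *Fth1* (−0.11) and *Slc40a1* (−0.70) in neutrophils against microglia and of *Ftl1* (−1.09) in neutrophils against border macrophages. The others of the 24 sign changes were in values that passed no test, and their cause was not tested. They were *Slc11a1* in border macrophages against microglia (0.078 with DESeq2's size factors, 0.058 by DESeq2, 0.25 with the looser gate, 0.27 with V3.0 libraries, and −0.37 to 0.12 with a mouse left out), *Ncoa4* there (−0.36 with the looser gate, −0.046 with V3.0 libraries), *Fth1* in neutrophils against border macrophages (0.25 from 500 genes per barcode, 0.062 with V3.1 libraries, and −0.24 to 0.0032 with a mouse left out), and *Slc11a1* (0.50) and *Hmox1* (0.51) there with V3.1 libraries. For the kit they were *Slc40a1* with a mouse left out (−0.0087 to 0.18 in microglia, −0.71 to 0.58 in neutrophils) and *Ftl1* in neutrophils without the filter (0.027), and for the inhibitors *Slc11a1* in microglia (0.025 with the stricter gate, 0.017 with V3.0 and 0.00087 with V3.1 libraries), *Blvrb* in microglia (−0.016 from 500 genes), *Ncoa4* (0.073, V3.0) and *Slc40a1* (0.26, V3.1) in neutrophils. The *Fth1* to *Ftl1* difference between border macrophages and microglia became 0.012 with the looser gate.

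The number of iron genes called changed from 5 to 3 without mouse 2 in border macrophages against microglia (range 3 to 5 with each mouse left out), from 7 to 4 with V3.0 libraries in neutrophils against microglia, from 3 to 6 with the looser gate and with library totals in neutrophils against border macrophages, and from 1 to 0 for the inhibitors in microglia by DESeq2 and with V3.1 libraries. Counts over all genes moved as follows. The kit in microglia gave 353 calls, 569 with the mouse as a replicate block, 223 with 865 microglia from every library, and 136 to 401 with a mouse or library left out. The kit in neutrophils gave 9, and 3 to 10 with a mouse left out. The inhibitors gave 112 in microglia, 15 by DESeq2, 48 with the stricter gate, 40 with the looser gate and 35 with V3.1 libraries. They gave 1 in border macrophages, 0 by DESeq2, 2 from 500 genes per barcode, 4 with the looser gate, 0 with V3.0 and 2 with V3.1 libraries, and 18 in neutrophils, 1 by DESeq2. Border macrophages against microglia gave 777, 1680 with the looser gate, 453 with V3.0 libraries and 496 to 663 with a mouse left out, and V3.0 libraries gave 2838 for neutrophils against microglia and 1504 against border macrophages. The kit interactions gave 1 each, 6 with the looser gate and 0 to 2 with a mouse left out for border macrophages, and 3 with the stricter gate and 0 to 1 with a mouse left out for neutrophils. The block changed the call of no iron gene. With the stricter gate, border macrophages (5 cells) could not be fitted, nor could the kit within border macrophages under any setting. Depth limits the border macrophage values: 3 counts in their 104443 UMIs exceed the microglial level of *Slc11a2*.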
